A study of Sus scrofa with 16 samples.

Results

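The genes described here move calcium into and out of the endoplasmic reticulum of pituitary cells, or encode the stanniocalcins. The members were the rows of the deposited count table whose Ensembl identifier carried 1 of 10 chosen symbols in the deposited comparison table. In that way 9 of the 10 symbols were found, among 25880 genes counted, and all 9 passed the expression filter that left 13621 genes for testing. They were the ryanodine receptor RYR2, the inositol trisphosphate (IP3) receptors ITPR1, ITPR2 and ITPR3, the pumps ATP2A2 and ATP2A3, the store sensor STIM1, the entry channel ORAI1, and STC1. STC2 had no row under its symbol there and is described apart.

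The RNA came from whole pituitaries, with no separation of lobes, of 16 female Złotnicka White pigs ("Zlotnicka white" in the labels), a native breed under conservation and without selection. The low feed conversion (LFC) group and the high feed conversion (HFC) group held 8 gilts each, LFC pigs being those that needed less feed per unit of gain. The labels give day 180 for every pig, slaughter at about 100 kg, and 1 test station with the same feed and housing, and they name no treatment. The study, however, gives ages that varied between pigs. In its trait measurements the HFC gilts of this breed gained more slowly, spent more days in test, and had less meat and more ham fat. These traits went with the groups and cannot be told apart from feed conversion here. Per the study, the gilts were unrelated and came from different farms, so each p-value below reflects the spread between animals.

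Endocrine cells of the pituitary keep a calcium store in the endoplasmic reticulum. Hormones that act through Gq-coupled receptors raise IP3, the IP3 receptors then release stored calcium, and this release is a trigger of hormone secretion, as in gonadotrophs. Ryanodine receptors release calcium in response to calcium itself, SERCA pumps (ATP2A genes) refill the store, and when it is empty STIM1 opens ORAI1 in the plasma membrane. Stanniocalcins are secreted glycoproteins first known from the calcium balance of fish.

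The count totals of the pigs ran from 6010629 to 11794256 reads. The hormone genes of the front lobe marked every library as pituitary, since the 6 of the list that were found (PRL, GH1, POMC, CGA, TSHB and FSHB) summed to between 96982 and 217300 CPM (the counts of a gene scaled to a common library total, with TMM factors). Markers of glia and myelin, cells of the rear lobe and stalk, differed between pigs, with a sum between 1206 and 5879 CPM in LFC replicates 1, 5 and 7 and HFC replicate 6 and between 108 and 232 CPM in the others. Libraries also differed in how counts fell on long and short genes. For each pig, the slope of log2(CPM + 1) on the log2 of the genomic span of 10881 genes, none of them a member, was computed, and it is called the length slope here. It was between -0.103 and 0.0141 in the LFC pigs and between -0.0851 and 0.0430 for HFC (p = 0.126 by an exact two-sided permutation test). LFC replicates 4 and 6 and HFC replicate 5 had the lowest slopes. HFC replicate 5 was also the smallest library.

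In the comparison of HFC with LFC pigs, 4 of the 9 members had an unadjusted p of 0.05 or less in edgeR's quasi-likelihood test, against 11.4% of all genes tested. RYR2, ITPR2 and ATP2A2 were higher in HFC, as were 7.03% of all genes at that p, and STC1 was higher in LFC, as were 4.41%. With total library size as the scaling in place of TMM, the split over all genes turned from 958 higher in HFC and 601 in LFC to 639 and 750, and RYR2 and STC1 were the 2 members left at that p. After Benjamini-Hochberg adjustment over all genes tested, no member had an edgeR adjusted p of at most 0.05, and the smallest was 0.385 for RYR2. At that adjusted p and a fold change of at least 1.3, edgeR called 0.0% of all genes, and DESeq2 called 0.216%, with none of the members. The study, with DESeq2 and the same limits, reports many more genes for this breed. It names RYR2, STC1 and ATP2A2 among its differentially expressed genes. It also reports that its qPCR of RYR2 and STC1 correlated with its RNA-seq values, in correlations not split by breed. The reason for this difference in calls was not tested. The median log2 fold change (HFC over LFC) of the 9 members was 0.17, against -0.01 over all genes. Of the 9 members 8 were above 0, as were 6526 of the 13621 genes tested. RYR2 and STC1 were also among the differentially expressed genes that the study measured by qPCR, picked, it states, for their link to hormonal regulation. The members were chosen with earlier results of these data known. The place of RYR2, STC1 and ATP2A2 among the 4, and the count of 4 itself, are therefore not independent evidence.

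**Figure D1:**
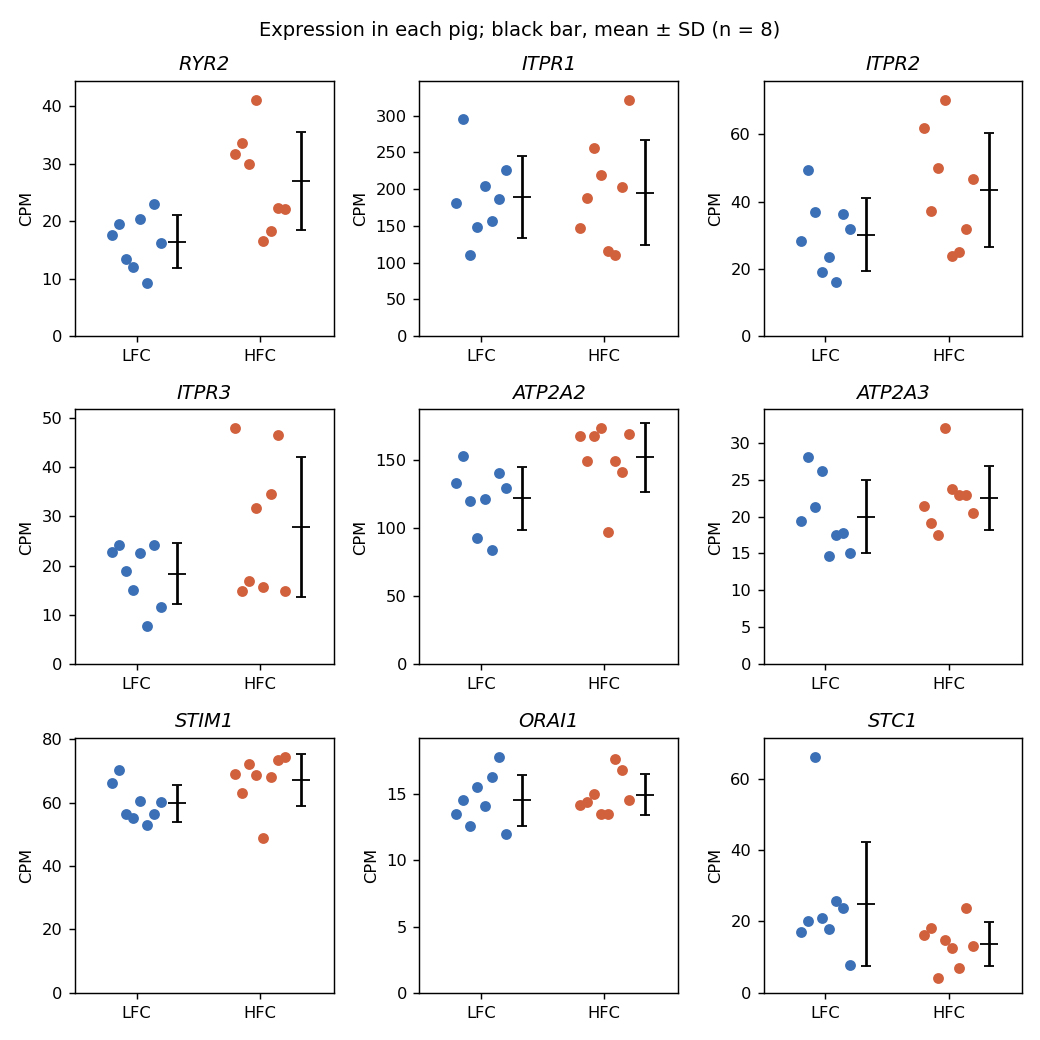
Expression of the 9 genes in CPM in each LFC (blue) and HFC (orange) pig, with the mean ± SD of each group (n = 8) as a black bar; all y axes start at 0. For RYR2 the 4 highest pigs are all HFC, STC1 has 1 LFC pig at 66.1 CPM far above the rest, and ORAI1 overlaps almost wholly between the groups.

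RYR2 is the ryanodine receptor best known from heart muscle and brain. Its gene (ENSSSCG00000010142) lies on chromosome 14 from 53653486 to 54194883 of Sscrofa11.1, the assembly of all positions given here. The RefSeq model of the same assembly runs on to 54406691, so the counted gene covered 71.8% of the RefSeq span, and reads from the remainder are not in its counts. RYR2 had a lowest value of 9.25, a median of 16.9 and a highest value of 23.0 CPM in the LFC pigs, and 16.5, 26.2 and 41.1 CPM in the HFC pigs. The groups overlapped, but 4 HFC pigs were above every LFC pig and 4 LFC pigs were below every HFC pig. The means were 16.4 ± 4.62 CPM (SD, n = 8) and 27.0 ± 8.49 CPM (SD, n = 8), a log2 fold change of 0.71 ± 0.20 (SE), or 1.64-fold.

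The unadjusted p of RYR2 was 0.00225 in edgeR, and the exact two-sided permutation test, which used all 12870 splits, gave p = 0.00777. Adjusted over all genes tested, the p-values were 0.385 in edgeR, 0.464 in the permutation test and 0.0963 in DESeq2. Leaving out 1 pig at a time gave log2 fold changes from 0.60 to 0.81 and an unadjusted p of 0.00649 or less in edgeR. With the length slope of each pig added to the model, the log2 fold change was 0.42 ± 0.15 (SE; edgeR, unadjusted p = 0.0110). RYR2 was the only member with an unadjusted p of 0.05 or less in that model.

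The IP3 receptors differ in their affinity for IP3 and in the tissues that use them, and ITPR1 is the main form of neurons. ITPR1 (ENSSSCG00000023437, chromosome 13, 61067774 to 61397655) had a lowest value of 109.6, a median of 184 and a highest value of 295 CPM in the LFC pigs, and 109.6, 195 and 321 CPM in the HFC pigs. The groups covered nearly the same range. The log2 fold change was 0.05 ± 0.22 (SE), so that the interval of 1.96 standard errors reached from -0.38 to 0.48. Its sign depended on single pigs, as it was -0.07 without HFC replicate 8, -0.02 without LFC replicate 3, -0.02 without HFC replicate 3 and 0.17 without LFC replicate 2.

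ITPR2, a form known from secretory and heart cells (ENSSSCG00000000555, chromosome 5, 46935923 to 47464125), had a lowest value of 16.1, a median of 30.0 and a highest value of 49.5 CPM in the LFC pigs, and 23.9, 42.0 and 70.3 CPM in the HFC pigs. In the HFC group 3 pigs were above every LFC pig, and HFC replicates 5 and 6 were below the LFC median. This was a log2 fold change of 0.52 ± 0.25 (SE; edgeR, unadjusted p = 0.0468, adjusted p = 0.433), and the exact two-sided permutation test gave p = 0.0906. It was 0.39 without HFC replicate 4, the pig with the highest value (unadjusted p = 0.122 in edgeR). With the length slope in the model it was 0.13 ± 0.15 (SE; edgeR, unadjusted p = 0.404).

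ITPR3 is a form known from epithelial and secretory cells (ENSSSCG00000001518, chromosome 7, 29835869 to 29902160). It had a lowest value of 7.88, a median of 20.8 and a highest value of 24.3 CPM in the LFC pigs, and 14.8, 24.3 and 47.8 CPM in the HFC pigs. The HFC pigs were spread widely, with replicates 1, 4, 6 and 7 above every LFC pig and replicates 2, 3, 5 and 8 below the LFC median. The log2 fold change of 0.60 had a standard error of 0.29, an unadjusted p of 0.0530 and, over all genes, 0.433 after adjustment (both edgeR). The exact two-sided permutation test gave p = 0.142. HFC replicate 1, the pig with the highest ITPR3, also had the highest summed endothelial markers (277 CPM) and the highest summed smooth muscle and pericyte markers (179.6 CPM) of the 16 pigs, while LFC replicate 6, with the lowest ITPR3, had 170.2 and 133 CPM. Their part in the ITPR3 values was not tested. The span of ITPR3 overlaps that of UQCC2, and reads were counted without strand.

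Of the SERCA pumps, ATP2A2 encodes the form found in nearly all tissues. ATP2A2 (ENSSSCG00000034386, chromosome 14, 31674654 to 31744978) had a lowest value of 83.6, a median of 125 and a highest value of 153 CPM in the LFC pigs, and 97.1, 158 and 173 CPM in the HFC pigs. In all HFC pigs but replicate 5 it was above the LFC median, and 4 of them were above every LFC pig. Between the groups the log2 fold change was 0.32 ± 0.13 (SE), or 1.25-fold (edgeR, unadjusted p = 0.0270, adjusted p = 0.421), and the exact two-sided permutation test gave p = 0.0427. Without HFC replicate 5 it was 0.41 ± 0.12 (SE; edgeR, unadjusted p = 0.00289), and without HFC replicate 4 the unadjusted p was 0.0520 in edgeR. Leaving out HFC replicate 5 also raised the count of all genes at an unadjusted p of 0.05 or less from 1559 to 3514. LFC replicates 4 and 6, which also had low slopes, were at 92.5 and 83.6 CPM. Without these 2 and HFC replicate 5, a choice made after seeing the data, the log2 fold change was 0.27 ± 0.08 (SE; edgeR, unadjusted p = 0.00424). With the length slope in the model it was 0.10 ± 0.06 (SE; edgeR, unadjusted p = 0.107). In RefSeq the span of ATP2A2 overlaps that of ANAPC7. Overlaps in RefSeq were also found for RYR2 (2 pseudogenes), ITPR2 (a protein-coding gene), and ITPR1 and ATP2A3 (a long noncoding RNA each). The part of overlapping genes in the counts was not tested.

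ATP2A3, the pump form of blood, endothelial and secretory epithelial cells (ENSSSCG00000017874, chromosome 12, 49980493 to 50025204), had a lowest value of 14.7, a median of 18.6 and a highest value of 28.0 CPM in the LFC pigs, and 17.5, 22.2 and 31.9 CPM in the HFC pigs. Its groups overlapped broadly. The log2 fold change of 0.17 ± 0.15 (SE) did not pass the test (edgeR, unadjusted p = 0.262), and its interval of 1.96 standard errors reached from -0.12 to 0.46.

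For store-operated entry, the store sensor STIM1 and the channel ORAI1 were the most even members across pigs, with coefficients of variation of 12.5% and 11.5% over all 16, against 20.5% to 72.0% for the others. STIM1 (ENSSSCG00000014792, chromosome 9, 6065353 to 6270533) had a lowest value of 52.9, a median of 58.3 and a highest value of 70.2 CPM in the LFC pigs, and 48.7, 68.9 and 74.4 CPM in the HFC pigs. HFC replicate 5 was the lowest of all 16 pigs, and the other HFC pigs were above the LFC median. Its log2 fold change was 0.17 ± 0.09 (SE; edgeR, unadjusted p = 0.0753; exact two-sided permutation p = 0.0769). Without HFC replicate 5 it was 0.25 ± 0.07 (SE; edgeR, unadjusted p = 0.00418), and with the length slope in the model of all 16 pigs it was 0.07 ± 0.07 (SE).

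ORAI1 (ENSSSCG00000034510, chromosome 14, 31011896 to 31028223) had a lowest value of 12.0, a median of 14.3 and a highest value of 17.8 CPM in the LFC pigs, and 13.5, 14.5 and 17.7 CPM in the HFC pigs. The ranges were almost the same. Its log2 fold change was 0.04 ± 0.10 (SE), and differences beyond -0.16 and 0.24 lay outside 1.96 standard errors.

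STC1 was the only member higher in the LFC pigs. STC1 (ENSSSCG00000009642, chromosome 14, 7948655 to 7961629) had a lowest value of 7.86, a median of 20.5 and a highest value of 66.1 CPM in the LFC pigs, and 4.25, 14.0 and 23.8 CPM in the HFC pigs. In 7 of the 8 HFC pigs it was below the LFC median, and 2 HFC pigs were below every LFC pig, yet the groups overlapped. For STC1 the log2 fold change was -0.86 ± 0.36 (SE; edgeR, unadjusted p = 0.0284, adjusted p = 0.423), and the exact two-sided permutation test gave p = 0.0768. LFC replicate 3 carried much of this difference, since without it the log2 fold change was -0.44 ± 0.30 (SE; edgeR, unadjusted p = 0.154). With the length slope in the model it was -0.81 ± 0.41 (SE), so that its size moved little while the unadjusted p became 0.0677 in edgeR.

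**Figure D2:**
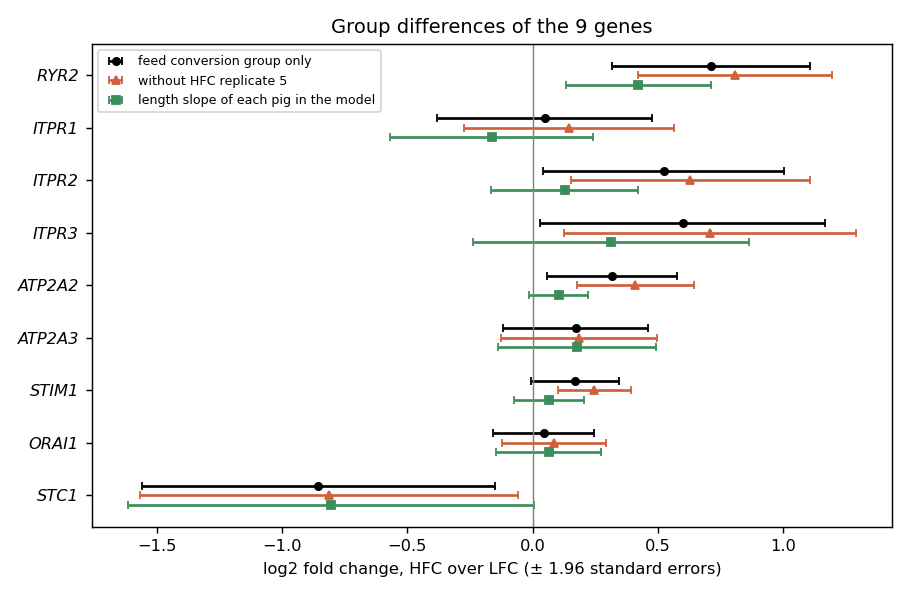
Log2 fold changes (HFC over LFC) of the 9 genes with bars of 1.96 standard errors from edgeR: all pigs with the group alone (black circles), without HFC replicate 5 (orange triangles), and with the length slope of each pig in the model (green squares). RYR2 moves from 0.71 to 0.42 and ITPR2 from 0.52 to 0.13 when the slope is added, while STC1 moves from -0.86 to -0.81.

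The length slope of the pigs ran alongside several members. Over the 16 pigs, its Pearson's r with log2(CPM + 1) was 0.957 for ATP2A2 (Spearman's rho 0.915), 0.884 for ITPR2 (rho 0.926), 0.817 for RYR2 (rho 0.824) and 0.782 for STIM1 (rho 0.726). The permutation p of r was 1e-05 for ATP2A2 and ITPR2, the smallest that 100000 resamples can give, and 0.000130 and 0.000240 for RYR2 and STIM1. Adjusted over the 45 relations of members to hormone genes and to the slope, these p-values of r were between 0.000225 and 0.00180, and those of rho were between 0.000450 and 0.0168. The relation of the first 3 genes held within each group, with r from 0.848 to 0.980 for LFC (n = 8, exact permutation p from 0.000149 to 0.00781) and from 0.756 to 0.930 for HFC (n = 8, exact permutation p from 0.00166 to 0.0159). For STIM1 it was 0.693 for LFC (n = 8, exact permutation p = 0.0579) and 0.817 for HFC (n = 8, exact permutation p = 0.0583). Without LFC replicates 4 and 6, the 2 pigs farthest from the median slope, r was between 0.672 and 0.914 for the 4 genes. HFC replicate 5, also of low slope, was kept in, and r without all 3 pigs was not computed.

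Such relations were common. Of all genes tested, 9.30% had an r of at least 0.8 with the slope and 9.27% an r of -0.8 or less, while 0.264% reached the r of ATP2A2. The spans of RYR2, ITPR2, ITPR1 and STIM1 are each longer than those of at least 94.1% of the genes with a known span, but ATP2A2 (70325 bases) is longer than only 74.5% of them. ITPR1, though long, had an r of 0.487 with the slope (rho 0.482, adjusted permutation p = 0.190 and 0.217). ITPR3 had an r of 0.598 (rho 0.503, adjusted permutation p = 0.0632 and 0.201). ORAI1 and ATP2A3 showed little relation to the slope, with r of -0.06 (rho 0.01, permutation p = 0.811) and 0.07 (rho 0.22, permutation p = 0.786). For STC1 r was -0.27 (rho -0.29, permutation p = 0.308). After adjustment the permutation p of r and of rho was at least 0.474 for these 3 genes.

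**Figure D3:**
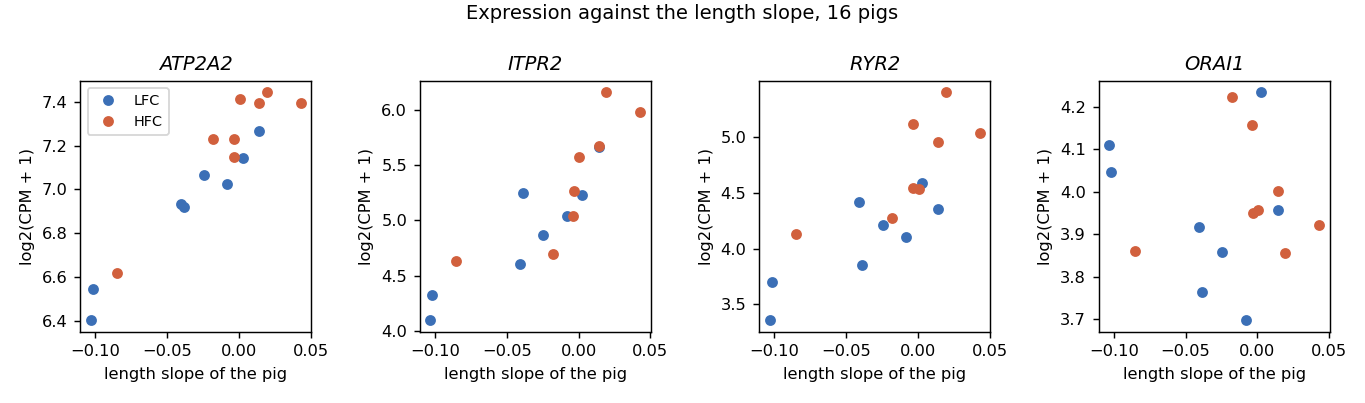
Expression as log2(CPM + 1) of ATP2A2, ITPR2, RYR2 and ORAI1 (y axes) against the length slope of each of the 16 pigs (x axes), LFC in blue and HFC in orange. ATP2A2 follows the slope with r = 0.957, with 3 pigs far to the lower left, and ORAI1 shows no such line (r = -0.06).

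Among the 36 pairs of members, 4 had a permutation p of at most 0.05 for both r and rho after adjustment over the pairs, and they linked RYR2, ITPR2, ATP2A2 and STIM1. The pair of ITPR2 and ATP2A2 had r = 0.871 and rho = 0.871 (permutation p = 2.00e-05 for r, adjusted 0.000480). Within LFC r was 0.906 (n = 8, exact permutation p = 0.00144), within HFC 0.776 (n = 8, exact permutation p = 0.00409), and 0.815 when the 2 farthest pigs were left out. These were the pigs farthest from the median of the first gene named in a pair, so they could differ between pairs. ATP2A2 and STIM1 had an r of 0.853, RYR2 and ATP2A2 of 0.847, and RYR2 and ITPR2 of 0.812, with rho of 0.853, 0.835 and 0.738. The adjusted permutation p of r for these 3 pairs was at most 0.00144, and that of rho at most 0.0164. In the same order, r was 0.764, 0.887 and 0.669 within LFC (n = 8, exact permutation p = 0.0302, 0.00275 and 0.0707) and 0.882, 0.686 and 0.858 within HFC (n = 8, exact permutation p = 0.0405, 0.0366 and 0.00987), and 0.850, 0.763 and 0.664 when the 2 farthest pigs were left out. With the 2 farthest pigs of each pair left out, the pair of RYR2 and ITPR2 no longer passed (adjusted permutation p = 0.0736), which left 3 pairs. Within HFC, rho of ATP2A2 with STIM1 was 0.429, and HFC replicate 5 was the lowest pig for both genes. All 4 genes also followed the length slope. The receptor forms did not track each other closely, as r was 0.46 for ITPR1 with ITPR2, 0.47 for ITPR2 with ITPR3 and -0.09 for ITPR1 with ITPR3 (adjusted permutation p = 0.199, 0.199 and 0.878), and neither did the sensor and the channel, with an r of 0.11 for STIM1 and ORAI1 (adjusted permutation p = 0.878). Their rho was 0.45, 0.34, -0.20 and 0.15.

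**Figure D4:**
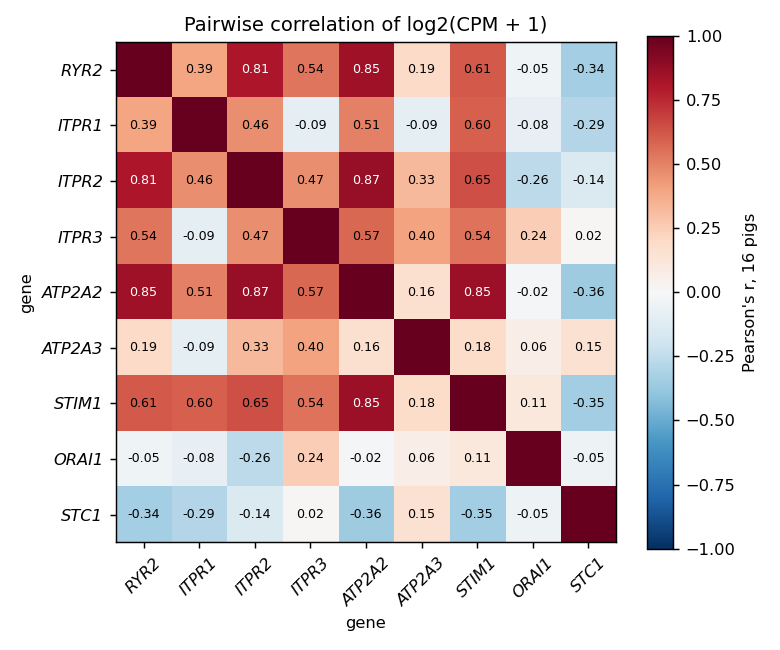
Pearson's r of log2(CPM + 1) over the 16 pigs for each pair of the 9 genes, red for positive and blue for negative values. RYR2, ITPR2, ATP2A2 and STIM1 form a red group with r from 0.61 to 0.87, and ORAI1, ATP2A3 and STC1 stay outside it.

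Members were also set against the hormone genes that mark the main cell types. In bulk tissue, fewer cells of a type and less RNA per cell cannot be told apart. ITPR1 followed GH1, the growth hormone gene of somatotrophs, with r = 0.798 and rho = 0.676 (permutation p = 0.000190 and 0.00502, adjusted over the 45 relations 0.00171 and 0.0282). This held in both groups, with r of 0.815 for LFC (n = 8, exact permutation p = 0.0160) and 0.799 for HFC (n = 8, exact permutation p = 0.0197). Leaving out the 2 pigs with the GH1 levels farthest from the median gave an r of 0.666 (permutation p = 0.00949, adjusted 0.0534). HFC replicate 8 had the highest value of both genes. GH1 itself had a log2 fold change of 0.04 between the groups.

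CGA, the shared subunit of the gonadotroph and thyrotroph hormones, ran against ITPR3 and STIM1. With ITPR3 r was -0.68 and rho -0.70, and with STIM1 r was -0.69 and rho -0.72 (adjusted permutation p from 0.0168 to 0.0194). Within the HFC pigs r was larger in size (r of -0.73 and -0.87, n = 8, exact permutation p = 0.0310 and 0.0110) than within the LFC pigs (r of -0.48 and -0.26, n = 8, exact permutation p = 0.201 and 0.552), a difference that was not tested. Within HFC rho was -0.71 and -0.62, and within LFC it was -0.52 and -0.31. HFC replicate 5 had the highest CGA (36287 CPM) and the lowest STIM1 of the HFC pigs. When the 2 pigs with the most distant CGA levels (LFC replicates 4 and 8) were left out, r was -0.70 and -0.75, with HFC replicate 5 kept in. For ATP2A2 with CGA r was -0.65 (adjusted permutation p = 0.0328) and rho -0.63 (adjusted permutation p = 0.0547), and without the 2 pigs r was -0.61 (adjusted permutation p = 0.108). No relation of a member to PRL, the lactotroph hormone, had an adjusted permutation p of at most 0.05.

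The closest link to a hormone gene was that of STC1 with POMC, the precursor of ACTH in corticotrophs and of melanocyte-stimulating hormone in the melanotrophs of the intermediate lobe. Over the 16 pigs r was 0.834 and rho 0.776 (permutation p = 7.00e-05 and 0.000700, adjusted 0.00105 and 0.00787). Within LFC r was 0.812 (n = 8, exact permutation p = 0.0102) and within HFC 0.823 (n = 8, exact permutation p = 0.0129). The rho was 0.786 within LFC and 0.524 within HFC, where replicate 3 was lowest and replicate 7 highest for both genes. Over all pigs r was 0.755 when the 2 with the most distant POMC levels (LFC replicates 2 and 3) were left out, which kept both of those HFC pigs. POMC itself had a log2 fold change of -1.23 between the groups. LFC replicate 3 had the highest level of both, with 66.1 CPM of STC1 and 83136 CPM of POMC, and HFC replicate 3 had the lowest of both, with 4.25 and 8588 CPM.

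Of 11058 genes with a symbol and a mean of at least 5 CPM, those with the pattern most like STC1 by Spearman's rho were PAX7 (0.882), PCSK2 (0.862), CH25H (0.838), CASR (0.824) and SLC1A1 (0.821). Only 0.0543% of the genes searched reached a rho of 0.8. PAX7 is the transcription factor that sets the melanotroph identity, PCSK2 is the prohormone convertase that cuts ACTH further, CASR is the receptor for extracellular calcium, CH25H makes an oxysterol and SLC1A1 carries glutamate. In LFC replicate 3 PCSK2 was at 559, PAX7 at 73.5 and CASR at 74.1 CPM, the highest of the 16 pigs for each gene, and in HFC replicate 3 they were at 15.3, 4.46 and 9.58 CPM, the lowest. LFC replicate 8, the LFC pig with the lowest STC1 (7.86 CPM), was also the lowest LFC pig for these 3 genes, with 29.6, 4.48 and 12.6 CPM. Within groups r of STC1 was 0.901 in the LFC and 0.937 in the HFC pigs with PAX7, 0.910 and 0.947 with PCSK2, and 0.901 and 0.889 with CASR. These 5 were picked as the highest of many, so their values describe these pigs only. All 5 had log2 fold changes below 0, from -1.29 to -0.66. The part of these genes, or of the cells that express them, in the STC1 difference was not tested.

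**Figure D5:**
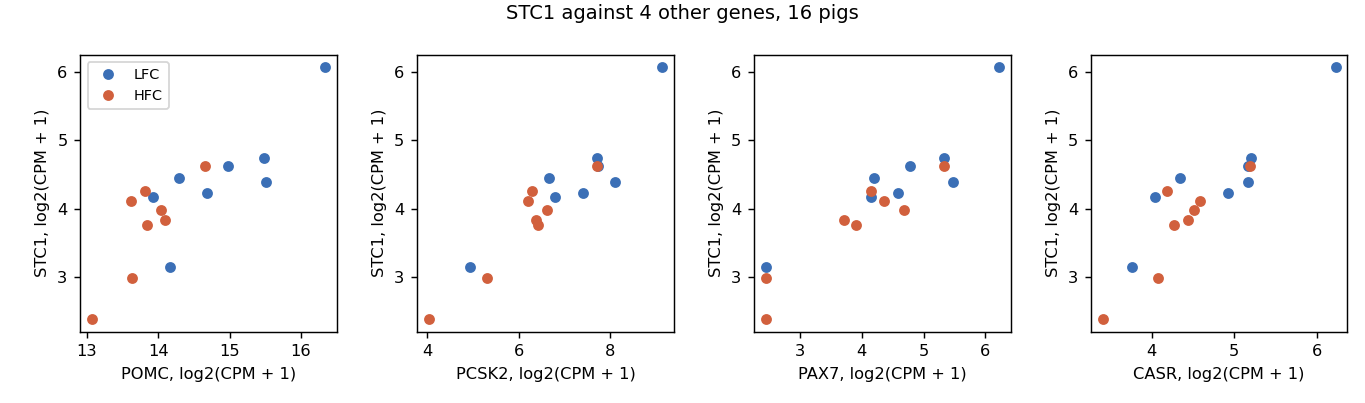
STC1 against POMC, PCSK2, PAX7 and CASR, all as log2(CPM + 1), in the 16 pigs, LFC in blue and HFC in orange. In each panel 1 LFC pig (replicate 3) lies at the upper right, HFC replicate 3 lies at the lower left, and LFC replicate 8 lies near the low end in the PCSK2, PAX7 and CASR panels. In the POMC panel 5 LFC pigs lie to the right of every HFC pig.

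The other genes of calcium storage, entry and export were examined in 7 lists of 107 symbols, of which 88 were tested. Of these, 57 had a log2 fold change above 0 and 31 below, 7 and 2 of them at an unadjusted p of 0.05 or less in edgeR, and 0 at an adjusted p of 0.05 or less in edgeR or DESeq2. The share of 10.2% at an unadjusted p of 0.05 or less was close to the 11.4% of all genes. The median log2 fold change was 0.08, and over all genes tested 6526 were above 0 and 7095 below. Without HFC replicate 5 the count at an unadjusted p of 0.05 or less was 24, and that over all genes went from 1559 to 3514.

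Export across the plasma membrane held the gene with the smallest p. SLC8A1, the sodium-calcium exchanger NCX1, had a lowest value of 48.2, a median of 58.0 and a highest value of 75.0 CPM in the LFC pigs, and 62.2, 73.3 and 81.8 CPM in the HFC pigs. All 8 HFC pigs were above the LFC median, and 7 LFC pigs were below every HFC pig. Its log2 fold change was 0.33 ± 0.09 (SE; edgeR, unadjusted p = 0.00179, adjusted p = 0.385), and with the length slope in the model it was 0.23 (unadjusted p = 0.00426 in edgeR). SLC24A1, a potassium-dependent exchanger, had a log2 fold change of 0.41 (edgeR, unadjusted p = 0.0220). Of the 11 genes of this list 10 were above 0, 3 at an unadjusted p of 0.05 or less (7.03% of all genes), with a median of 0.28. Of all 13621 genes tested, 6526 were above 0.

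Of the luminal proteins that bind calcium or fold proteins in the store, 13 of the 15 tested had a log2 fold change above 0, 4 at an unadjusted p of 0.05 or less, and the median was 0.20. Over all genes tested, 6526 of 13621 were above 0, and 7.03% were so at that p. The reticulocalbin RCN3 had 264 ± 60.1 CPM (SD, n = 8) for LFC and 366 ± 107 CPM (SD, n = 8) for HFC, a log2 fold change of 0.47. PDIA6, a disulfide isomerase, had 359 ± 56.6 and 463 ± 101 CPM (SD, n = 8 each), with a log2 fold change of 0.37. For both genes 4 HFC pigs were above every LFC pig, and edgeR gave an adjusted p of 0.413. RCN2 went the other way with a log2 fold change of -0.24 (edgeR, unadjusted p = 0.0422). CALR, the main calcium buffer of the store, had 792 ± 104.0 and 909 ± 148 CPM (SD, n = 8 each), a log2 fold change of 0.20 (edgeR, unadjusted p = 0.104). With the length slope in the model none of these 4 luminal genes had an unadjusted p of 0.05 or less.

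The nearest relatives of the members did not pass the test in edgeR. RYR3, a ryanodine receptor of brain, had a log2 fold change of 0.43 ± 0.27 (SE), and ATP2A1, the pump of fast muscle, had 0.35 ± 0.23 (SE) with group means of 1.45 ± 0.456 CPM in LFC and 1.86 ± 0.458 CPM in HFC (SD, n = 8 each). RYR1 was not analysed here, since no row carried its symbol. For STIM2, ORAI2 and ORAI3 the log2 fold changes were 0.02 ± 0.11, -0.03 ± 0.09 and 0.17 ± 0.11 (SE). No gene of the lists of other store channels, of other entry genes, of channel partners or of mitochondrial uptake had an unadjusted p of 0.05 or less, and their medians lay between -0.07 and 0.09. In the mitochondrial list 10 of 13 genes had a log2 fold change below 0, as did 7095 of all 13621 genes tested. Among 19 genes that make or remove IP3, INPP5A, the phosphatase that ends the IP3 signal, was the only one at an unadjusted p of 0.05 or less, with a log2 fold change of -0.20 (edgeR, unadjusted p = 0.0416).

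Markers of cell types were tested in the same way. Over all genes tested, 7.03% were higher in HFC and 4.41% higher in LFC at an unadjusted p of 0.05 or less. No marker had an edgeR adjusted p of 0.05 or less. In DESeq2, 2 hormone genes and 1 fibroblast gene had such an adjusted p. In the hormone list PRL had a log2 fold change of 1.27, POMC of -1.23 and CGA of -0.56 (unadjusted p of 0.05 or less in edgeR), while GH1, TSHB and FSHB did not have such a p. The endothelial list had 2 of 5 genes (VWF and CDH5) higher in the HFC pigs at an unadjusted p of 0.05 or less, and its summed level was between 118 and 178 CPM in the LFC and between 95.8 and 277 CPM in the HFC pigs. In the blood list 1 of 2 genes tested (ALAS2) was lower in the HFC pigs, and in the fibroblast list 1 of 6 (COL1A2) was higher. None of the 4 glia and myelin genes tested, of the 6 smooth muscle and pericyte genes, of the 3 striated muscle genes or of the 6 macrophage genes had such a p. The fibroblast sums were between 243 and 483 CPM in LFC and between 297 and 869 CPM in HFC pigs, and the blood sums were between 278 and 1427 CPM and between 63.1 and 1045 CPM. The smooth muscle and pericyte sums were between 80.7 and 133 CPM and between 35.0 and 179.6 CPM, and those of macrophages between 161 and 266 CPM and between 88.6 and 309 CPM. The summed striated muscle markers were between 13.5 and 24.8 CPM in the LFC and between 16.7 and 21.7 CPM in the HFC pigs. The part of these cell types in the values of RYR2 and the other members was not tested.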

How the data were processed

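Whole pituitaries of 8 LFC and 8 HFC gilts were sequenced as single reads from unstranded libraries. The groups stand in the labels under a field named for shear force, with the values low_FCR and high_FCR. The authors cleaned the reads, mapped them on Sscrofa11.1 and its Ensembl genes with RSEM and STAR (Bowtie 2 is also named in the methods), and deposited whole-number counts of reads per gene and pig, not normalized. Per the labels, CASAVA 1.8.2 and DESeq2 were also used. From the deposited comparison (group means, fold changes and p-values of the authors) only identifiers, symbols and positions were read.

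In R 4.3.3, edgeR 4.0.16 was run with TMM scaling, its expression filter and quasi-likelihood tests over 13621 genes with Benjamini-Hochberg adjustment. A standard error is the log2 fold change divided by the root of F. A positive log2 fold change is higher in HFC pigs, and CPM is scaled by TMM. Exact permutation tests and correlations (100000 resamples for 16 pigs, all orders for 8) used log2(CPM + 1) in Python 3.11.15, numpy 2.4.6 and scipy 1.17.1. Single genes were adjusted over all genes tested. Symbols came from the deposited comparison (9548 genes tested), a reference name list (2805) or position on the same assembly (323, POMC among them).

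Alternatives were DESeq2 1.42.0, other scalings and filters, a replicate block, the length slope, 1 surrogate variable from sva 3.50.0, a pseudocount of 0.1 and each pig left out. Tests were checked on simulated counts. Between libraries of a group, the chi-square per degree of freedom was at least 11.4, so none were copies. The members and lists were chosen with earlier results of these data known. Named were all members, of each list up to 2 genes per direction at an unadjusted p of 0.05 or less, 7 relatives and buffers, and the 5 genes most like RYR2 and STC1. PCSK2, PAX7 and CASR pig values, and the marker genes named, were chosen after their values were seen. Levels were not compared between genes, because no transcript lengths were used here.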

Additional observations from a re-analysis of the deposited data

Results flagged for a closer look

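In 2 of the 18 sets of 8 pigs (9 members in each group), the lowest pig stood apart from the others by Dixon's test at the 95% level, on log2(CPM + 1). Chance alone gives about 1 such set in 20. Both were HFC replicate 5, with 97.1 CPM of ATP2A2 (gap of 0.644 of the range of the HFC pigs) and 48.7 CPM of STIM1 (gap of 0.603), both above the critical value for 8 pigs. This pig had the smallest library, with 6010629 counts, and the lowest length slope of the HFC pigs (-0.0851). The part of depth and slope in the values was not tested.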

How the results depend on the processing

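Of 234 log2 fold changes of members over 26 alternatives, 229 kept their direction and their side of an adjusted p of 0.05, and the other 5 were all of ITPR1, with a changed sign. They were -0.16 with the length slope, -0.22 with 1 surrogate variable, and -0.02, -0.02 and -0.073 without LFC replicate 3, HFC replicate 3 and HFC replicate 8. No member had an adjusted p of 0.05 or less in any alternative, so keeping that side shows little. Sizes could move much more. With 1 surrogate variable ITPR2 went from 0.52 to 0.06 and ATP2A2 from 0.32 to 0.05, while STC1 was at -0.82. The count of members at an unadjusted p of 0.05 or less (4) was 2 with total library scaling, 1 with the length slope and 1 with a surrogate variable (RYR2 in both), and 2 (without LFC replicate 4 or HFC replicate 4) to 6 with each pig left out, which moved ITPR1 between -0.073 and 0.17. With the same alternatives, pathway genes at that p (9) were 3 with the slope, 3 with the surrogate variable and 4 to 24 with a pig left out, and all genes (1559) were 652, 625 and 989 to 3514. The pathway and all-gene counts were highest without HFC replicate 5 and lowest without HFC replicate 4, and without LFC replicates 2 and 8 the pathway count was 14 each and without LFC replicate 4 the count of all genes was 1013. DESeq2 called 29 genes, against 0 in edgeR. Without the 3 pigs of the lowest length slope, an alternative chosen after seeing the data, the counts were 3 members, 11 pathway genes and 1971 genes. Among the 36 pairs of members, 13 had an adjusted permutation p of at most 0.05 for r with total library scaling, against 4 with TMM. The count was 3 when the 2 pigs farthest from the median of the first gene of each pair were left out. Same-numbered pigs share only a number (r of their deviations between -0.52 and 0.41, none best with its own number), and the replicate block gave 3 members, 9 pathway genes and 1404 genes, with STC1 at an unadjusted p of 0.123. With 54 to 415 counts of RYR2 and 39 to 530 of STC1 per pig, counting error adds little to the spread between pigs, but 8 pigs a group limit what differences can be seen.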

Other observations

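STC2, the second stanniocalcin, was named by the reference list (ENSSSCG00000016983) and not by the deposited comparison. It had between 8 and 20 counts per pig, or 1.56 ± 0.592 CPM for LFC and 1.72 ± 0.303 CPM for HFC (SD, n = 8 each). Its log2 fold change was 0.16 ± 0.23 (SE; edgeR, unadjusted p = 0.497) and its interval of 1.96 standard errors, from -0.29 to 0.61, overlapped that of STC1, from -1.56 to -0.15. The difference between the 2 genes was not tested.

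The genes with the pattern most like RYR2 over the 16 pigs were MDC1, a mediator of the DNA damage response (rho 0.962), SLC4A8, a bicarbonate transporter (0.947), KDM6B, a histone demethylase (0.944), TUBGCP4 of the gamma-tubulin complex (0.938) and ZFYVE26 (0.935). Of the genes searched, 3.76% had a rho of at least 0.8 with RYR2, against 0.0543% for STC1. Some calcium store genes known from muscle were below the expression filter, with at most 1 count in any pig of TRDN (triadin), 5 counts of HRC, the histidine-rich calcium-binding protein, and 13 counts of SLN (sarcolipin, which binds the SERCA pump). Other partners of the channels and pumps passed it, among them FKBP1A with 121 CPM in the LFC and 113 CPM in the HFC pigs, and SRI (sorcin) with 169 and 142 CPM (group means). These 5 genes were chosen after their values were seen.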
